A study of Saccharomyces cerevisiae with 4 samples.

Results

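Convergent intergenic regions in the interior of the yeast chromosomes are the gaps between 2 neighbouring genes that are read toward each other. In such a gap the left gene is on the Watson strand and the right gene on the Crick strand (W and C in the systematic names), so both genes end at the gap and neither starts there. The members were the gaps of 1 bp or more between neighbouring nuclear protein-coding genes in this order that lay more than 30 kb from either chromosome end and held no annotated noncoding gene. The rule gave 1361 convergent gaps among 5161 interior gaps of all orientations, the others being 2471 tandem gaps (both genes read the same way) and 1329 divergent gaps (genes read away from each other). Gene positions were coding positions of the R64 assembly, from which sacCer3 was made. The 3′ untranslated parts of transcripts were therefore not counted as gene and could fall in a gap. Transcript ends were not used. The rule uses gene positions and no peak values.

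Chromatin immunoprecipitation (IP) with sequencing, ChIP-seq, which reads the DNA that comes down with a crosslinked protein, was done with an anti-HA antibody in early log phase cultures of Saccharomyces cerevisiae grown at 30 °C in rich glucose medium. The 3 peak lists came from strain LRY1926 with HA-tagged Sir2, strain LRY0558 with HA-tagged Hst1, and the untagged parental strain LRY1009, the mock IP. Each IP had 1 list, with 159 Sir2, 692 Hst1 and 3 mock IP peaks, so there was no replicate check, and no test of a difference was made. The lists hold no read counts and the sequencing depth is unknown, and all intervals given are 95% intervals that cover counting error only.

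Sir2 and Hst1 are related NAD+-dependent histone deacetylases. Sir2 provides the enzyme activity of the SIR silencing complex at telomeres and the silent mating loci, and Hst1 is brought to promoters of middle sporulation and NAD+ synthesis genes by the DNA-binding protein Sum1. Convergent gaps hold terminators and 3′ untranslated regions, and they are known as places where the cohesin complex gathers along chromosome arms. Because neither flanking gene starts there, they serve as gaps without the promoter of a flanking gene.

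No Sir2 summit, the position of highest signal in a peak, lay in a convergent interior gap. The count was 0 of 1361 gaps (exact Clopper-Pearson interval 0 to 0.271%). By the simpler limit of 3 counts over 1361, a count of 0 allows a share of up to 0.220%. The background over interior gaps of all orientations was 0.213% (11 of 5161). Tandem gaps had a Sir2 summit in 5 of 2471 (0.202%, 0.0657 to 0.472%) and divergent gaps in 6 of 1329 (0.451%, 0.166 to 0.980%). The background lies within the interval of the convergent share, so a lower share with a summit in convergent gaps was not detectable with these counts. Counting any shared sequence, Sir2 peaks reached 0 of the 1361 gaps (0 to 0.271%), against a background of 0.349% (0.207 to 0.551%). By this measure the background lies above the interval of the convergent share, though its own interval overlaps it. Tandem gaps came to 0.445% (0.222 to 0.795%) and divergent gaps to 0.527% (0.212 to 1.08%). Gap length, which differs between orientations, was not taken into account. Sir2 peaks covered 0 bp of the 359 kb of convergent gaps, against 0.214% of tandem and 0.316% of divergent gap sequence. The mock IP list likewise had 0 bp there.

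Of the 84 Sir2 summits more than 30 kb from an end, 66 lay in protein-coding genes, 5 in tandem gaps, 7 in divergent gaps and 6 in other gaps. A Sir2 summit lay within 500 bp of an edge, or inside, for 5 convergent (0.367%), 12 tandem (0.486%) and 12 divergent gaps (0.903%). Of these, 0 convergent, 5 tandem and 6 divergent gaps held the summit inside. The median distance to the nearest Sir2 summit was 72.6 kb for convergent, 74.5 kb for tandem and 74.3 kb for divergent gaps. In 4 of the 5 convergent cases the summit was inside the left flanking gene. The nearest summit was at the gap of 80 bp between YAT1, a carnitine acetyltransferase gene, and YAR035C-A (I, 192257 to 192336), where a Sir2 peak inside YAT1 with a fold of 2.09 ended 94 bp short of the gap. Fold is the authors' own value, the enrichment at the summit over the local background of their peak caller, and it is compared here only within a list. The Sir2 peak in PAU2, a seripauperin cell wall gene, ended 66 bp before the gap to TCA17 (V, 64091 to 64708), with a fold of 2.89. The one case with its summit outside a gene was beyond RRT15, at the edge of the ribosomal DNA, where the Sir2 peak with a fold of 2.61 ended 76 bp from the gap to MAS1 (XII, 490595 to 491865). These gaps were chosen for their nearness after the values were seen.

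Hst1 summits were present in 12 convergent gaps, 1 in each. These were 0.882% of the 1361 gaps (0.456 to 1.54%), below the background of 6.94% over all interior gaps (358 of 5161). Tandem gaps had an Hst1 summit in 181 of 2471 (7.32%, 6.33 to 8.42%) and divergent gaps in 165 of 1329 (12.4%, 10.7 to 14.3%). Counting any gap that shared at least 1 bp with an Hst1 peak, there were 19 convergent gaps (1.40%, 0.843 to 2.17%), against a background of 8.6%, with 9.67% of tandem and 14.0% of divergent gaps. Hst1 peaks covered 1.22% of convergent gap sequence, 6.95% of tandem and 9.74% of divergent gap sequence. The 12 summits were 2.08% of the 578 Hst1 summits more than 30 kb from an end.

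Convergent gaps were short, with a median of 213 bp against 378 bp for tandem and 474 bp for divergent gaps, and 1164 of the 1361 were shorter than the median Hst1 peak of 400.5 bp. Shares were therefore also taken within classes of length. Among gaps from 400 to under 800 bp, 2 of 156 convergent gaps had an Hst1 summit (1.28%, 0.156 to 4.55%), 90 of 872 tandem gaps (10.3%, 8.38 to 12.5%) and 56 of 508 divergent gaps (11.0%, 8.44 to 14.1%). Among gaps of 800 bp and over, the shares were 4 of 42 convergent (9.52%, 2.66 to 22.6%), 60 of 254 tandem (23.6%, 18.5 to 29.3%) and 100 of 253 divergent (39.5%, 33.5 to 45.8%). In gaps from 200 to under 400 bp they were closer, 5 of 540 (0.926%), 30 of 1130 (2.65%) and 8 of 463 (1.73%), and the interval of the convergent share, 0.301 to 2.15%, overlapped the others. Under 200 bp each orientation had 1 gap with a summit, but of unlike totals. These were 1 of 623 convergent (0.161%, 0.00406 to 0.891%), 1 of 215 tandem (0.465%, 0.0118 to 2.56%) and 1 of 105 divergent gaps (0.952%, 0.0241 to 5.19%). The intervals overlapped. With the share of each class weighted by the lengths of convergent gaps, tandem gaps came to 3.18% and divergent gaps to 3.60%, against 0.882% for convergent gaps. Per sequence, convergent gaps held 3.34 Hst1 summits per 100 kb (exact Poisson interval 1.73 to 5.84), tandem gaps 16.0 (13.8 to 18.5) and divergent gaps 22.0 (18.8 to 25.6).

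**Figure D1:**
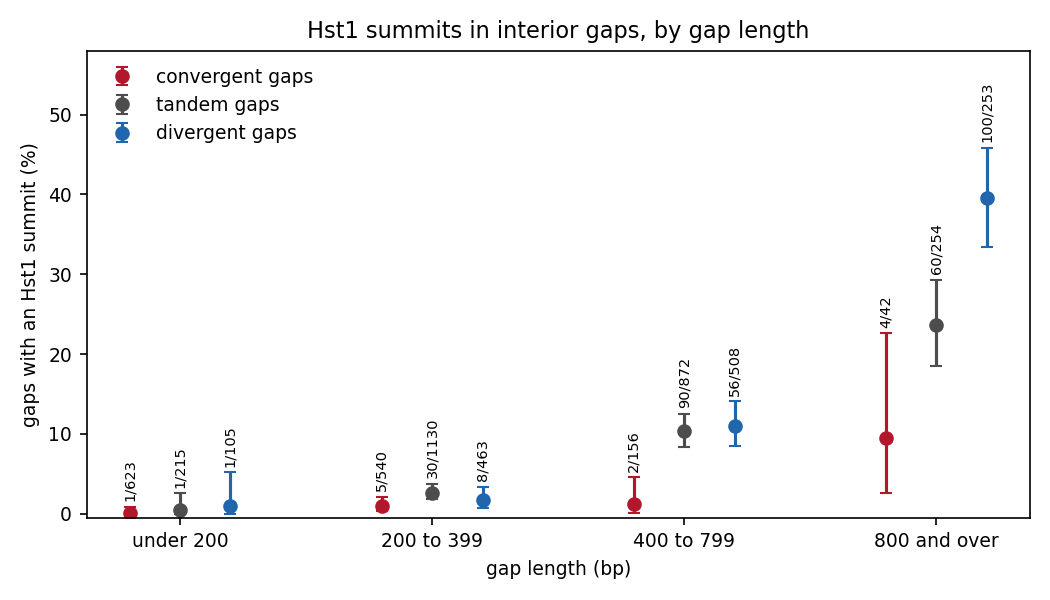
Share of interior gaps with an Hst1 summit (%) by gap length (bp), for convergent, tandem and divergent gaps. Points are shares, bars are exact 95% intervals, and the fractions give gaps with a summit over all gaps; at 800 bp and over the shares were 9.52%, 23.6% and 39.5%.

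The 12 summits were spread over 10 chromosomes with at most 2 on any, and their gaps lay 48.8 to 533 kb from the nearer end. Their peaks had a median fold of 2.06 (1.78 to 3.92), against 2.40 for peaks in tandem gaps, 2.24 in divergent gaps, 2.20 in coding sequence and 2.22 for the list as a whole. The 120 peaks in other interior gaps, which hold a noncoding gene or meet the 30 kb line, had a lower median of 2.02. Only 4 of the 12 reached the median of the list, and the strongest ranked 104 of 692. Their median −log10 q, where q is the peak caller's p-value adjusted for multiple testing, was 8.03, against 15.5 in tandem and 12.9 in divergent gaps. Peak lengths were alike, with a median of 410 bp in convergent, 440 bp in tandem and 414 bp in divergent gaps.

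**Figure D2:**
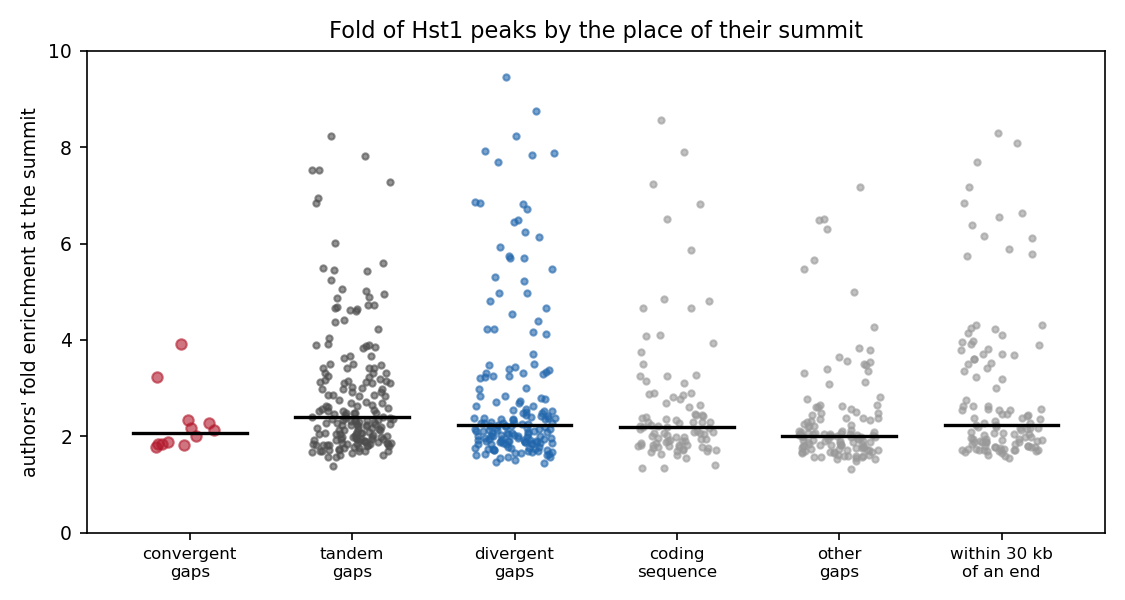
Authors' fold enrichment at the summit of each of the 692 Hst1 peaks, by where the summit lay; each point is a peak and black lines are medians. Other gaps hold a noncoding gene or meet the 30 kb line; the 12 peaks in convergent gaps had a median of 2.06 and none above 3.92.

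Although no flanking gene starts in a convergent gap, the start of a gene farther out can be close where a flanking gene is short. Only 1.74% of convergent gap sequence, in 45 of the 1361 gaps, lay within 500 bp upstream of any protein-coding start. The split at 500 bp was not planned, as only the distance to the nearest start was. Of the 12 summits, 4 lay in that sequence within 500 bp upstream of a start, and these 4 gaps were among the 45 (8.89%, 2.48 to 21.2%). The other 8 summits fell in the 1316 gaps without such sequence (0.608%, 0.263 to 1.19%). The 4 peaks had folds of 2.18 to 3.92 and −log10 q of 14.1 to 47.4, and the 8 had folds of 1.78 to 2.29 and −log10 q of 4.83 to 14.0, with 1 of the 8 at 10 or more.

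The strongest was in the gap of 193 bp between FUM1, the fumarase gene, and YPL261C (XVI, 48803 to 48995). The Hst1 peak (48671 to 49209) had a fold of 3.92, with −log10 q at 47.4, and covered the whole gap. Its summit lay 21 bp from the 309 bp coding sequence of YPL261C and 328 bp upstream of CUB1, the gene beyond, which points away. The next lay between YGR035W-A and CAX4, which encodes a dolichyl pyrophosphate phosphatase (VII, 557787 to 558148). That peak (557696 to 558402) had a fold of 3.22 and also covered its whole gap, with the summit 104 bp from the 222 bp gene YGR035W-A and 468 bp upstream of YGR035C.

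Between PEP8, a retromer subunit gene, and YJL052C-A (X, 337038 to 337883), the Hst1 peak (337530 to 338015) had a fold of 2.33, with −log10 q at 14.1. Its summit was 42 bp from YJL052C-A, a gene of 120 bp, and 429 bp upstream of TDH1, which encodes a glyceraldehyde-3-phosphate dehydrogenase of glycolysis. Between SPO24, a sporulation gene of 204 bp, and ERV2, a thiol oxidase gene of the endoplasmic reticulum (XVI, 646154 to 646447), the peak (646241 to 646636) had a fold of 2.18. This summit stood 8 bp from the end of ERV2 and 396 bp upstream of IRC16, whose coding sequence overlaps ERV2 on the other strand. In all 4 of these gaps a flanking gene was at most 309 bp long. Beside ERV2, though, the short gene SPO24 lay on the other side of the summit from IRC16. In the other gaps the start lay past the short gene, so a short gene is part of how they were set apart.

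**Figure D3:**
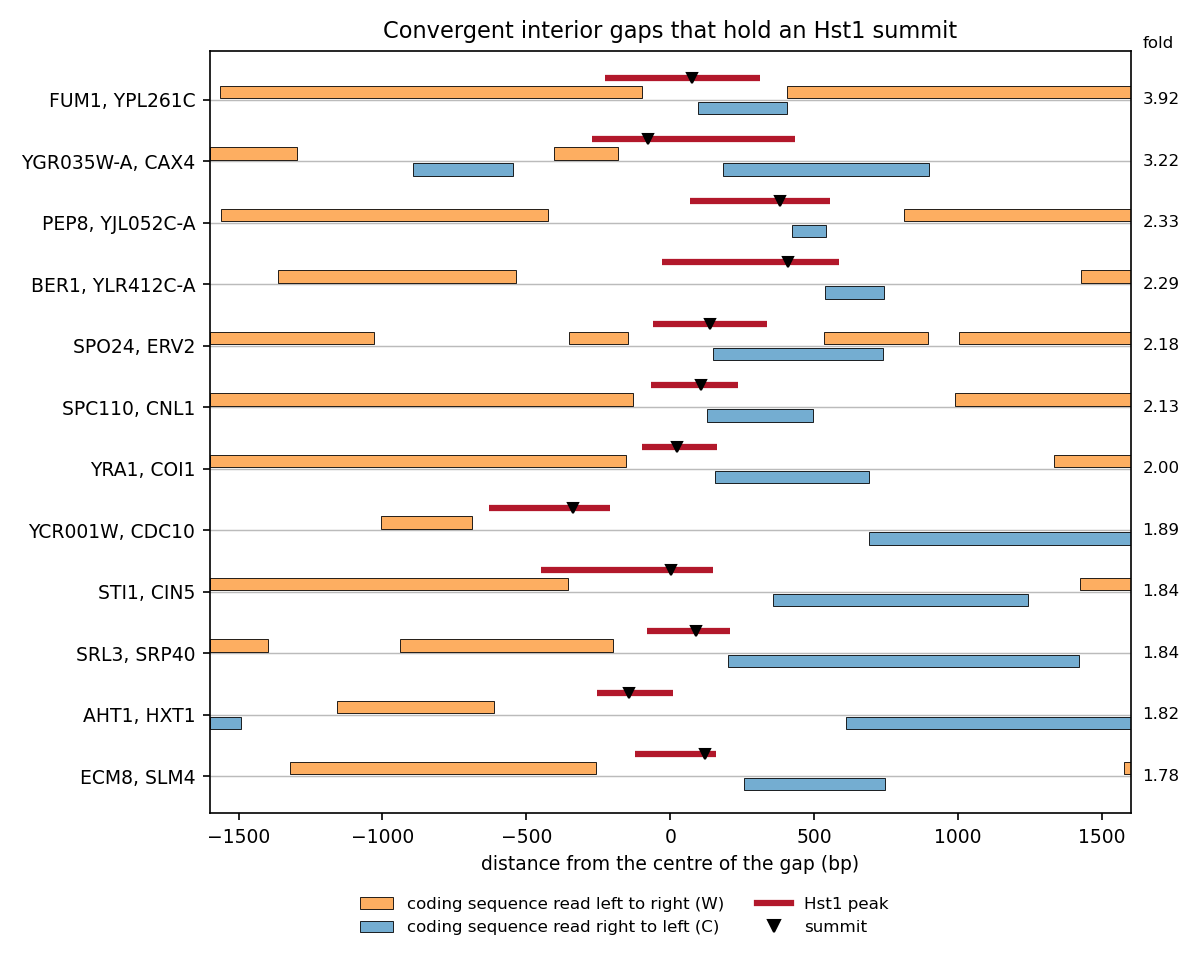
The 12 convergent interior gaps with an Hst1 summit, in order of fold (right), drawn by distance from the centre of the gap (bp); orange and blue bars are coding sequences on the W and C strands, red bars the Hst1 peaks and triangles their summits. In the rows of FUM1, YGR035W-A and PEP8 a short gene separates the summit from an outward-pointing gene (CUB1, YGR035C and TDH1). In those of YCR001W and AHT1 the peak lies wholly in a wide gap, of 1380 and 1222 bp.

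Of the 8 gaps with no start within 500 bp downstream of the summit, the highest fold was between BER1 and YLR412C-A (XII, 949193 to 950266). Its Hst1 peak (949699 to 950314) had a fold of 2.29, with −log10 q at 14.0. The nearest start with the summit upstream of it, that of INA1, was 1017 bp away past the 207 bp gene YLR412C-A. The start of YLR412C-A, which reads toward the summit, was 334 bp away. Between SPC110, the gene for the spindle pole body receptor of the γ-tubulin complex, and CNL1 (IV, 1188942 to 1189198), the fold was 2.13 and the start of GGA1, a Golgi clathrin adaptor gene, was 881 bp off. Between YRA1, an mRNA export factor gene, and COI1 (IV, 1238005 to 1238311) the fold was 2.00. There the start of RPP2B, a ribosomal stalk protein gene, was 1310 bp away.

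The other 5 had folds under 2 and a −log10 q under 10. Between YCR001W and CDC10, a septin gene (III, 116000 to 117379), the peak of fold 1.89 lay wholly in a gap of 1380 bp, 351 bp past YCR001W. Between STI1, a gene of an Hsp90 co-chaperone, and CIN5, a bZIP transcription factor gene (XV, 382823 to 383532), the fold was 1.84, with the summit 357 and 354 bp from the genes and 1241 bp from the nearest start. Between SRL3 and SRP40, a nucleolar protein gene (XI, 612266 to 612664), the fold was also 1.84 and the nearest gene with the summit upstream of its start, PTR2, began 3175 bp off. Between AHT1 and HXT1, a low-affinity glucose transporter gene (VIII, 289691 to 290912), a peak of 265 bp had a fold of 1.82 and the start of HXT4, another glucose transporter gene, was 1348 bp off. The lowest, with a fold of 1.78 and a rank of 586, lay between ECM8 and SLM4, a gene of the vacuolar EGO complex (II, 391292 to 391804).

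Most of the gaps with an Hst1 summit lay beside a short gene. The shorter flanking gene had a median coding length of 342 bp in the 12 gaps and 825 bp in all 1361. It was under 500 bp in 8 of the 12 (66.7%, 34.9 to 90.1%), against 322 of all 1361 gaps (23.7%, 21.4 to 26.0%). Taken the other way, 8 of 322 convergent gaps beside a gene under 500 bp held a summit (2.48%, 1.08 to 4.84%), and 4 of 1039 with both genes at 500 bp or more did (0.385%, 0.105 to 0.983%). The corresponding shares were 6.66% and 7.54% in tandem gaps and 12.0% and 12.6% in divergent gaps. Median gap length was 214.5 bp beside a short gene and 213 bp otherwise. In 10 of the 12 gaps the summit was nearer to the shorter gene. The limit of 500 bp for a short gene was chosen after the values were seen. The 8 gaps beside a short gene include the 4 with a summit within 500 bp upstream of a start. A start that close calls for a short flanking gene unless genes overlap, so the traits are not separate. The rest of the 8 were beside SLM4 (489 bp), YCR001W (315 bp), CNL1 (369 bp) and YLR412C-A (207 bp).

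**Figure D4:**
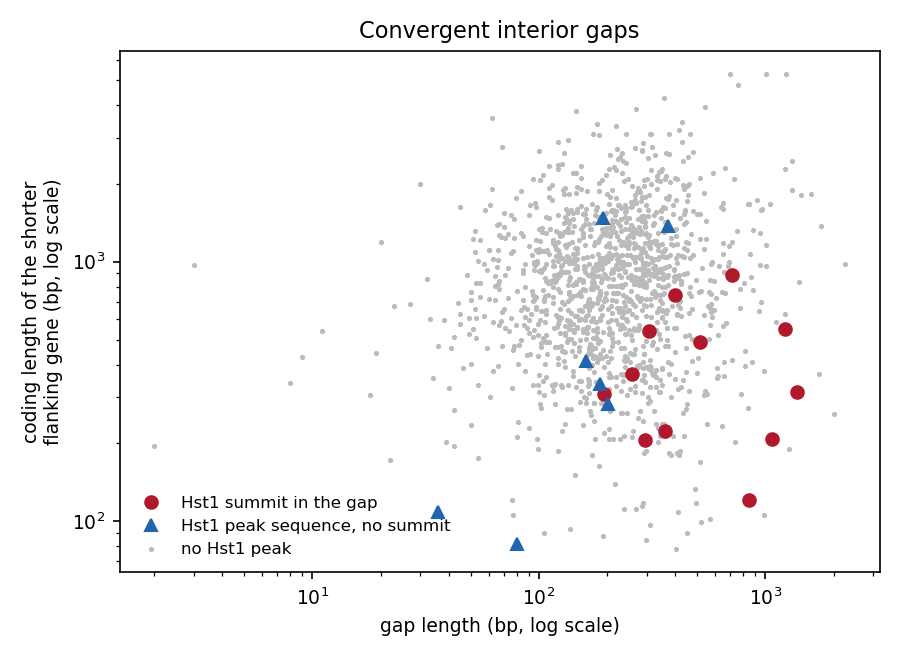
Coding length of the shorter flanking gene against gap length (bp, both axes logarithmic) for the 1361 convergent interior gaps. Red circles are the 12 gaps with an Hst1 summit, blue triangles the 7 with Hst1 peak sequence but no summit, and grey points the 1342 with neither; 8 of the 12 circles lie under 500 bp.

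Densities were also taken outside the 500 bp upstream of gene starts. Such sequence can still lie close to a start on its downstream side. In the 353 kb of convergent gap sequence beyond 500 bp upstream of any start there were 8 summits, or 2.27 per 100 kb (exact Poisson interval 0.979 to 4.47). The 244 kb of such sequence in tandem gaps held 48, or 19.7 per 100 kb (14.5 to 26.1), and the 76.7 kb in divergent gaps held 28, or 36.5 (24.2 to 52.7). Interior coding sequence, taken whole and not split by distance to a start, held 93 summits, or 1.12 per 100 kb (0.905 to 1.37), and 40 of the 93 lay within 500 bp upstream of a start. In the 6.24 kb of convergent gap sequence within 500 bp upstream of a start, 4 summits gave 64.1 per 100 kb (17.5 to 164), against 15.0 in tandem and 20.4 in divergent gaps. By construction, a tandem gap holds sequence beyond that window only where the gap is longer than it, and a divergent gap only where it is longer than both windows, so these densities compare gaps of different lengths.

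**Figure D5:**
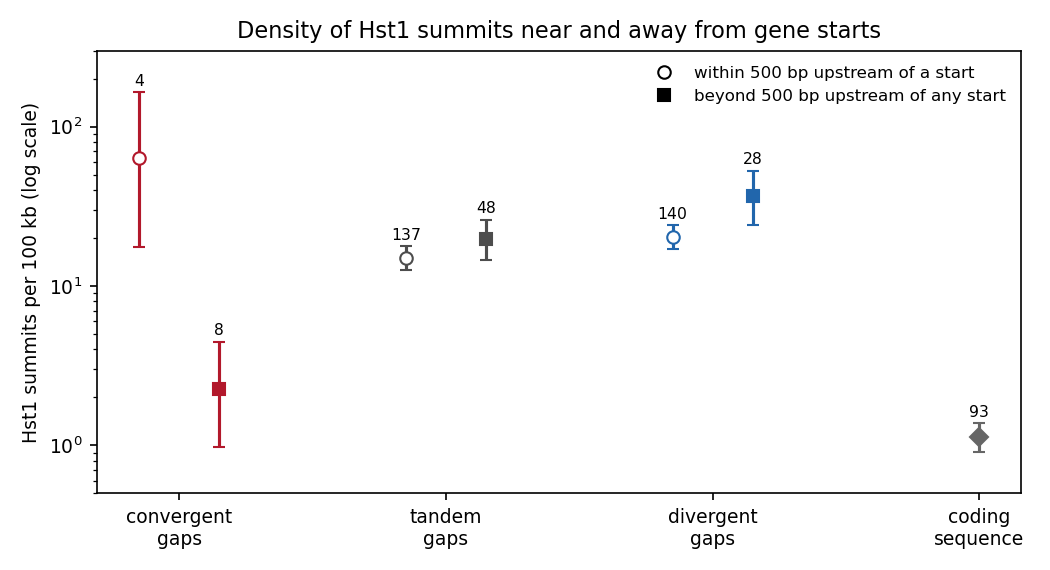
Hst1 summits per 100 kb (log scale) in interior gap sequence within 500 bp upstream of a gene start (open circles) and beyond it (squares), and in all interior coding sequence, not split by distance to a start (diamond); bars are exact 95% Poisson intervals and numbers are summits. Convergent gap sequence beyond 500 bp upstream of any start stood at 2.27, against 19.7 for such sequence in tandem gaps and 36.5 in divergent gaps.

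Another 7 convergent gaps held Hst1 peak sequence but no summit. These peaks were stronger, with a median fold of 3.14 (2.65 to 8.57), all 7 above the list median, and 6 had their summit in a protein-coding gene and 1 in a divergent gap. In 3 of the 7, those of highest fold, the summit lay within 500 bp upstream of a start. The 7 peaks reached 27 to 122 bp into the convergent gap and were 407 to 2978 bp long, against a list median of 400.5 bp. A peak with its summit elsewhere reaches a gap only by its extent, so this choice favours long peaks. The strongest, with a fold of 8.57, had its summit in YPR053C, 48 bp upstream of SMK1, which encodes a MAP kinase of spore wall assembly, and extended 122 bp into the gap between NHP6A, an HMG-box chromatin protein gene, and MAK3, an N-terminal acetyltransferase gene (XVI, 665491 to 665692). A peak of fold 7.24 with its summit in the 81 bp gene YAR035C-A, 221 bp upstream of SWH1, covered the gap to YAT1, the gap with the nearest Sir2 summit. A peak of fold 6.25 between SCS7 and YMR272W-B covered the 36 bp gap to ZDS1 (XIII, 811197 to 811232).

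The remaining 4 peaks had their summits in YDR215C (fold 2.65, 90 bp in the gap to AHA1), SDH9 (2.91, 28 bp in the gap to GYP6), YJL028W (2.87, 122 bp in the gap to YJL027C) and TOS4 (3.14, 27 bp in the gap to SWI6). AHA1 encodes an activator of Hsp90 and SWI6 a cofactor of G1/S transcription.

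The gaps were also compared together with their surroundings. Within 500 bp of an edge, or inside, an Hst1 summit was found for 28 convergent gaps (2.06%), 264 tandem gaps (10.7%) and 202 divergent gaps (15.2%). Within 1 kb the counts were 78 (5.73%), 324 (13.1%) and 221 (16.6%). Both sets of counts include the 12 convergent, 181 tandem and 165 divergent gaps with a summit inside. They therefore repeat that difference and do not describe the surroundings alone. The median distance to the nearest Hst1 summit was 7.36 kb for convergent, 6.50 kb for tandem and 7.26 kb for divergent gaps.

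No peak of any list touched 1342 of the 1361 gaps. Long gaps were among them. The longest was the 2251 bp between PIR3, a cell wall protein gene, and YKL162C (XI, 145379 to 147629), with the nearest Hst1 summit 1950 bp away. Next were the gaps between AAC3, a mitochondrial ADP/ATP carrier gene, and YBR085C-A (II, 2000 bp), between MGA1 and RIE1 (VII, 1756 bp), between GAT1, a nitrogen-regulated transcription factor gene, and PAU5 (VI, 1732 bp), and between YFL002W-A and SPB4 (VI, 1596 bp). In the last, a Sir2 summit inside YFL002W-A lay 246 bp from the gap.

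Convergent gaps were also sorted by the kind of gene beside them. Ribosomal protein genes flanked 63 of the gaps, with 0 summits. Genes of glycolysis and fermentation flanked 11, genes of NAD+ metabolism 11, histone genes 6 and translation factor genes 5, each with 0. Middle sporulation genes flanked 24 gaps, of which 1, that of CDC10, held a summit. Heat shock and chaperone genes flanked 13, of which 1, that of STI1, did. The share over all convergent gaps was 0.882%, and counts of 0 or 1 in lists of this size show nothing particular to a list.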

How the data were processed

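The submitters' processing notes name BWA, MACS2 and the build sacCer3. Cutoffs, tool versions, the control used in each call and the handling of the 2 technical replicates named in the design text: not given in the sources used here. Per peak, the authors' deposited lists give a fold ratio, −log10 p and −log10 q, and a score, which in every peak equalled 10 times the −log10 q without its decimals. The genomic input was not analysed here.

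Positions were made 1-based. Genes came from a RefSeq table of R64 (6002 protein-coding genes and 429 noncoding entries, pseudogenes included, on 16 chromosomes). The table has no strand, so it was read from the W or C of the systematic name. The right end of a chromosome was set at the last annotated or peak base. Of 1513 convergent gaps, 86 lay within 30 kb of an end and a further 66 held a noncoding entry. A gap was called where a summit (start plus offset) lay in it. Intervals were exact (Clopper-Pearson for shares, Poisson for densities; Python 3.11.15, scipy 1.17.1). Planted summits were recovered in tests on simulated data. Promoter, here, means the 500 bp upstream of an annotated coding start.

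The members and the gene lists were chosen with earlier results of these data known. Named gaps were all with a summit, all with peak sequence, the 5 longest without a peak and list members beside a summit; the Sir2 neighbours were added afterwards. A planned count for Ty genes was not made, as the gene table does not mark them. No tests were made, and alternatives are given in the closing section.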

Additional observations from a re-analysis of the deposited data

How the results depend on the processing

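Of 65 recomputed values, 43 stayed within the counting interval of the reported value. The values include percents of sequence, for which no interval is given here. Neighbouring bases of a peak are not separate counts, so the tally mixes unlike measures. Sir2 summits stayed at 0 of the convergent gaps in all settings but the distance of 10 kb, where they were in 0.140%. The order of convergent below tandem below divergent gaps in Hst1 summits per 100 kb held in all settings but the last one below, in which convergent gaps were still lowest, at 2.23. At a −log10 q of at least 10, Hst1 summits were in 0.367% of convergent gaps and peaks covered 0.610% of their sequence, with 1.39 summits per 100 kb in convergent, 10.6 in tandem and 13.8 in divergent gaps. In the strongest 50% of the list these were 0.294%, 0.552%, 1.11, 9.79 and 11.3. With gaps over 10 kb from ends, Sir2 peaks covered 1.22% and Hst1 peaks 1.67% of convergent gap sequence. With noncoding genes allowed, Hst1 summits were in 1.89% of convergent gaps, at 6.62 per 100 kb, and Sir2 and Hst1 peaks covered 1.66% and 4.10%. In gaps of at least 200 bp Hst1 peaks covered 1.37%. In settings added with the values known, gaps beside a gene under 500 bp left out gave 0.385%, 0.499% and 1.47 per 100 kb, and summits upstream of a start left out gave 4.16 in tandem and 3.67 in divergent gaps. That last setting keeps the sequence upstream of starts in the length, which is 78.9% of tandem, 89.9% of divergent and 1.74% of convergent gap sequence, so it lowers the first 2 by construction. The cause of these shifts was not tested beyond what each setting removes. Peak calls rest on an unknown depth. No paired analysis was possible because each IP has 1 list.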

Other observations

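Convergent gaps outside the rule had summits more often. Of 66 such gaps farther than 30 kb from ends that held a noncoding gene, 15 had an Hst1 summit (22.7%, exact interval 13.3 to 34.7%). All 15 were among the 44 gaps that held a tRNA gene, with folds of the strongest summit of 1.53 to 4.26, and the 22 gaps with other noncoding genes had 0. The highest fold, 4.26, was between APC11 and YDL007C-A (IV, 433995 to 436566), which held 3 Hst1 summits, and MID2 and RPS25B (XII, 791807 to 795572) had 2, with a highest fold of 3.32. Sir2 had 0 summits in these 66 gaps, with peak sequence in 4. These gaps had a median length of 1096 bp, against 213 bp for those that met the rule, and the part of length in the counts was not tested.

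Of 86 convergent gaps within 30 kb of an end, 4 had a Sir2 summit (4.65%, 1.28 to 11.5%) and 7 an Hst1 summit (8.14%, 3.34 to 16.1%). The Sir2 summits lay beside HMRA2 (fold 13.7), beside AAD3 on III (12.5), between YOL162W and PAU20 on XV (6.08) and beside COS10 on XIV (2.47). The gap between YOL162W and PAU20 also held an Hst1 summit, with a fold of 8.29. Sequence near ends is repeated, and the copy a read came from is uncertain there.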
